A study of Mus musculus with 28 samples.

Results

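The 7 genes described here encode the machinery that writes and erases methylation of histone H3 at lysine 27: Ezh1, Ezh2, Suz12, Eed and Jarid2 of Polycomb repressive complex 2 (PRC2), and the demethylases Kdm6a and Kdm6b. They were listed by gene symbol, by a rule that uses no measured value, but with earlier results of these data known. All 7 were found among the 22552 genes listed in each table. PolyA RNA was sequenced from satellite cells, which renew skeletal muscle, of mice on a C57Bl/6 background. KO denotes SIRT1mKO mice, in which Cre from a Pax7 knock-in allele recombines a floxed exon 4 of Sirt1, so that the deletion is limited to cells with a history of Pax7 expression, and WT denotes the wild-type mice of the labels. FI denotes quiescent cells taken directly after isolation by FACS, Cul denotes cells proliferating in Ham's F-10 medium that held bFGF at 12.5 ng/ml and 20% fetal bovine serum, and Diff denotes cells moved for 24 hours (1 day) to medium with 2% horse serum. The groups were KO_FI (3 libraries), KO_Cul (2), KO_Diff (2), WT_FI (5), WT_Cul (4) and WT_Diff (2), 18 libraries in all. Nothing in the labels ties a library to an animal or culture of its own, and the p-values therefore measure only how far these samples spread, which may be technical.

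PRC2 places methyl groups on lysine 27 of histone H3, and the trimethylated form marks genes held silent by Polycomb proteins. Ezh1 and Ezh2 are alternative catalytic subunits, Suz12 and Eed are core subunits that every PRC2 needs, and Jarid2 is an accessory subunit that helps to bring the complex to chromatin. Kdm6a, also called UTX, and Kdm6b, also called JMJD3, remove the mark. In the muscle lineage Ezh2 is known as the methyltransferase of cycling myogenic cells, Ezh1 as that of non-dividing cells, and the demethylases as enzymes that help to open muscle genes.

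The libraries lay in 4 tables that were processed separately: KO_FI with WT_FI, KO_Cul with WT_Cul, KO_Diff with WT_Diff, and a table of WT states that holds 2 further WT_Cul and 2 further WT_FI libraries. Depth was 24254119 to 82825550 fragments per library. Levels are given as CPM, fragments of a gene scaled to a common library size with TMM factors, and libraries are numbered from 0 within their group and table. The 7 satellite cell markers together reached 1475 to 6523 CPM in every library, and none was at 0 in a whole group. Several libraries stood apart. In the table of WT states, WT_Cul library 0 had 807 CPM of the differentiation factor Myog, against 9.05 CPM in WT_Cul library 1, and 184 against 575 CPM of the proliferation marker Mki67. The WT_FI libraries of that table held summed fibroblast markers of 16802 and 23278 CPM, while the WT_FI libraries of the KO_FI table held 1762 to 3787 CPM. In the table of WT states, WT_FI satellite cell markers summed to 1985 and 2189 CPM, against 4707 to 6523 CPM in the KO_FI table. Pax7 averaged 127 CPM in the former WT_FI libraries and 918 CPM in the latter. In the Diff table, library 0 of each genotype had 620 (KO) and 551 (WT) CPM of Mki67, and library 1 had 135 (KO) and 115 (WT). Sirt1 itself was at 28.8 to 63.4 CPM in the KO libraries and at 28.2 to 90.8 CPM in the WT libraries, and since counts over the whole gene do not single out exon 4 they do not check the genotype.

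The promoters of 4 PRC2 genes are shown as those of its catalytic and core subunits, and because E2F factors are known in human cells to drive EZH2 and EED. Sequences are from RefSeq (GRCm38.p6) and run from 250 bases before to 30 bases after the gene's start. Capitals mark any of the 4 E2F motifs TTTCCCGC, TTTGGCGC, TTTCGCGC and TTTGCCGC, searched on both strands over 250 bases before to 50 after the start. Ezh2 lies at chr6:47595001-47595280 and Eed at chr7:89980947-89981226, both on the minus strand, Suz12 at chr11:79992856-79993135 on the plus strand, and Ezh1 at chr11:101226434-101226713 on the minus strand.
Ezh2: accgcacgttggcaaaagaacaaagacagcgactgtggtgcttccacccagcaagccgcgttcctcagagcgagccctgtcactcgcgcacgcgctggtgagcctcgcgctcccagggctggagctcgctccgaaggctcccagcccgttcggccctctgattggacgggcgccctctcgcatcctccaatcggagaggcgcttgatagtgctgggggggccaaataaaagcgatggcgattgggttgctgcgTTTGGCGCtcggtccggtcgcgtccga
Suz12: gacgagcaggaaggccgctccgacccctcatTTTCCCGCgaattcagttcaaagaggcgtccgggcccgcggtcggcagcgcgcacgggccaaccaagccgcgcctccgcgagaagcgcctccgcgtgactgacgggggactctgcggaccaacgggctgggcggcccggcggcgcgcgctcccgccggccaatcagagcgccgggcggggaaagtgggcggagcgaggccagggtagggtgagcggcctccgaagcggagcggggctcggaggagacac
Eed: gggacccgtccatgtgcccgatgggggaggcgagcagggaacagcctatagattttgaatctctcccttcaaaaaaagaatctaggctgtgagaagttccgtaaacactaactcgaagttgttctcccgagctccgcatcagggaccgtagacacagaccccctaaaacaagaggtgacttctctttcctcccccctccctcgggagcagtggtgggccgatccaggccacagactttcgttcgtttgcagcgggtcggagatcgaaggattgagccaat
Ezh1: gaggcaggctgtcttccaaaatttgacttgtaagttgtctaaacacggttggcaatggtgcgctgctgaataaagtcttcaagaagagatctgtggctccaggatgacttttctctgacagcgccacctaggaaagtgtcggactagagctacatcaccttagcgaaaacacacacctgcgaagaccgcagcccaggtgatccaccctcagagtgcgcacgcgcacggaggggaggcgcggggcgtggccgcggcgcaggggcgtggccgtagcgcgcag
Of the 6 members with a promoter entry (all but Kdm6b), 2 held a motif: Ezh2 had TTTGGCGC at position 4 after the start, and Suz12 had TTTCCCGC at position -219. Among all 32851 promoters of the same length, 2.26% held one, and counted by gene 2.6% of 27025 genes did. The printed letters of Eed and Ezh1 contain none, and neither did the promoters of Jarid2 and Kdm6a. A match describes letters in a window and does not show that a factor binds there.

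Proliferating WT cells differed from freshly isolated WT cells in the levels of both PRC2 methyltransferase transcripts. In the table of WT states Ezh2 and Eed rose in culture and Ezh1 fell, so that 3 of the 7 genes passed the test (2 higher, 1 lower). Over all 14680 genes tested, 28.6% passed (12.6% higher, 16% lower), the share against which these 3 are to be read. Ezh2, the methyltransferase of cycling cells, had 139 and 142 CPM in WT_Cul libraries, against 28.3 and 21.0 CPM in WT_FI libraries. The groups did not overlap, and both WT_Cul libraries had nearly the same Ezh2 level although Mki67 and Myog set them apart. The log2 fold change was 2.51 (SE 0.36, adjusted p = 0.0141, edgeR), a 5.71-fold higher level. Ezh1, the other catalytic subunit, had 24.5 and 35.8 CPM in WT_Cul libraries and 81.8 and 87.9 CPM in WT_FI libraries. Every WT_Cul value lay below every WT_FI value, with a log2 fold change of -1.49 (SE 0.36, adjusted p = 0.0362, edgeR).

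Of the core subunits, Eed, the WD-repeat protein that reads trimethylated lysine 27, had 117 and 105 CPM in WT_Cul libraries, against 30.5 and 34.6 CPM in WT_FI libraries (log2 fold change 1.77, SE 0.33, adjusted p = 0.0199, edgeR). The 2 groups were clearly apart. Suz12, the zinc finger subunit that holds the complex together, had 91.5 and 196 CPM in WT_Cul libraries and 71.2 and 88.6 CPM in WT_FI libraries. WT_Cul library 0 was only just above the WT_FI libraries, and the change did not pass (log2 0.85, adjusted p = 0.226, edgeR). Without that library, which leaves 1 WT_Cul library, the Suz12 estimate was 1.25. Jarid2, the accessory subunit, had 19.4 and 39.8 CPM in WT_Cul libraries and 68.7 and 72.6 CPM in WT_FI libraries, a log2 difference of -1.25 that did not pass (adjusted p = 0.093, edgeR), although the groups did not overlap.

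Neither demethylase passed in this table. Kdm6b, the demethylase known for its quick induction by stress and inflammatory signals, had 45.6 and 81.2 CPM in WT_Cul libraries, against 148 and 189 CPM in WT_FI libraries (log2 -1.41, adjusted p = 0.062, edgeR). Its groups did not overlap. Kdm6a had 30.6 and 84.5 CPM in WT_Cul libraries and 60.9 and 92.3 CPM in WT_FI libraries, which overlapped (log2 -0.41, adjusted p = 0.616, edgeR). In all, 6 of the 7 genes did not overlap between the groups, 3 higher and 3 lower, while 70.9% of all genes tested did not (35.5% higher, 35.4% lower). With 2 libraries in each group the calls depended on single libraries, as did the number of all genes that passed. Leaving out 1 library leaves 1 in its group. The log2 estimates of the 3 genes that passed then ran from 2.319 to 2.74 (Ezh2), 1.652 to 1.87 (Eed) and -1.808 to -1.287 (Ezh1). The fibroblast markers (5 of 5 detected in both groups) summed to 401 and 1109 CPM in WT_Cul libraries and 16802 and 23278 CPM in WT_FI libraries, the pericyte and smooth muscle markers (4 of 4) to 1338 and 1638 CPM against 16743 and 24816 CPM, and their part in these differences was not tested.

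**Figure D1:**
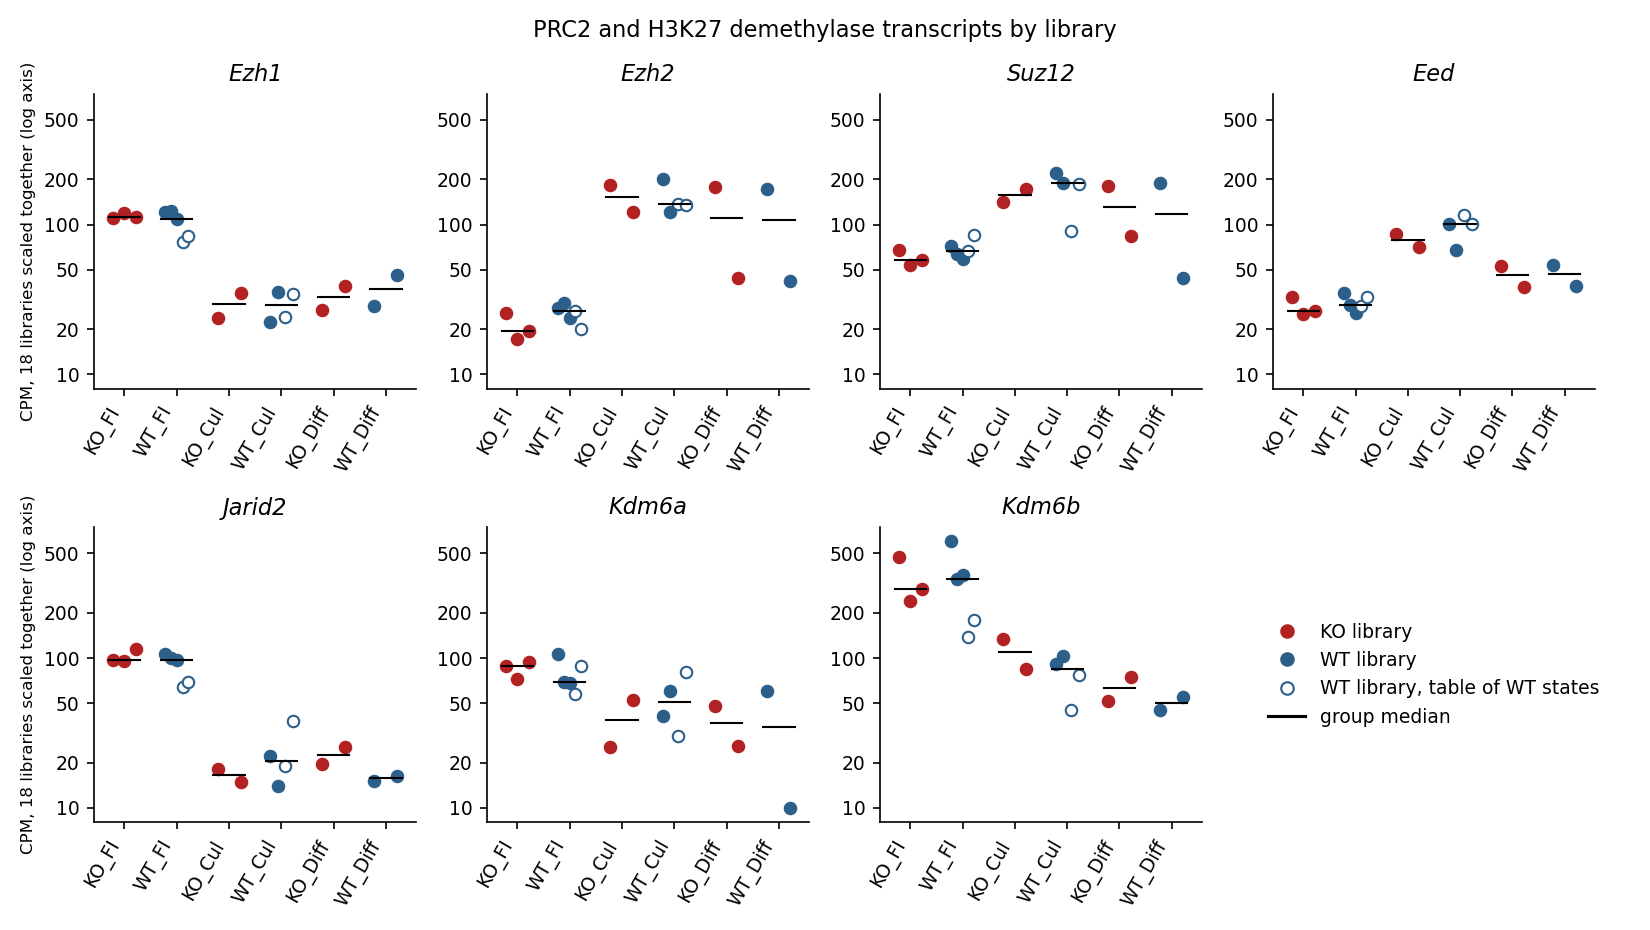
CPM of each of the 7 genes (log axis), with all 18 libraries scaled together, in the 6 groups; each point is a library, open points are the WT libraries of the table of WT states, and bars are group medians. Ezh2 lay between 17.3 and 29.97 CPM in FI libraries and between 122 and 203 CPM in Cul libraries, while Ezh1 lay between 76.9 and 123 CPM in FI libraries and between 22.4 and 35.8 CPM in Cul libraries.

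The other 14 libraries, none of which is in the table of WT states, gave the same comparison for each genotype once their 3 tables were joined, although state and table then cannot be told apart. In KO cells 6 of the 7 genes passed between KO_Cul and KO_FI, 3 higher and 3 lower, where 54.9% of the 16698 genes tested passed (25.6% higher, 29.3% lower). Ezh2 rose by 2.87 on the log2 scale (SE 0.61, adjusted p = 0.00255, edgeR), Suz12 by 1.40 (adjusted p = 0.0284) and Eed by 1.48 (adjusted p = 0.000781). Jarid2 fell by 2.63, Ezh1 fell by 1.96 and Kdm6b fell by 1.61, the last with an adjusted p of 0.00461. In WT cells the same 6 genes passed between WT_Cul and WT_FI, where 53.5% of all genes passed (24.1% higher, 29.4% lower). The WT estimates were 2.58 for Ezh2 (SE 0.61), 1.66 for Suz12, 1.49 for Eed, -2.49 for Jarid2, -2.02 for Ezh1 and -2.16 for Kdm6b. Kdm6a passed in neither genotype (log2 -1.13, adjusted p = 0.14 in KO cells and log2 -0.68, adjusted p = 0.36 in WT cells). Jarid2 thus showed a larger difference between these tables than in the table of WT states, where its log2 fold change was -1.25.

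The median log2 change of all genes was -0.19 in the KO comparison and -0.16 in the WT one, and -0.31 and -0.30 with RLE scaling, under which none of the 7 genes changed its sign or its side of the threshold. Suz12 was the least firm call: in KO cells it was lost without either library of KO_Cul and without KO_FI library 1 or 2 (adjusted p = 0.0686 to 0.116), and in WT cells without WT_Cul library 0 (adjusted p = 0.0701). Kdm6a in KO cells passed when a WT_Diff library was left out of the joined fit (adjusted p = 0.0247 without library 0 and 0.0274 without library 1). Fibroblast markers summed to 43.4 and 61.4 CPM in KO_Cul and to 12.1 and 17.1 CPM in WT_Cul libraries, against 1483 to 3911 CPM in KO_FI and 1762 to 3787 CPM in WT_FI libraries, and their part was not tested.

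**Figure D2:**
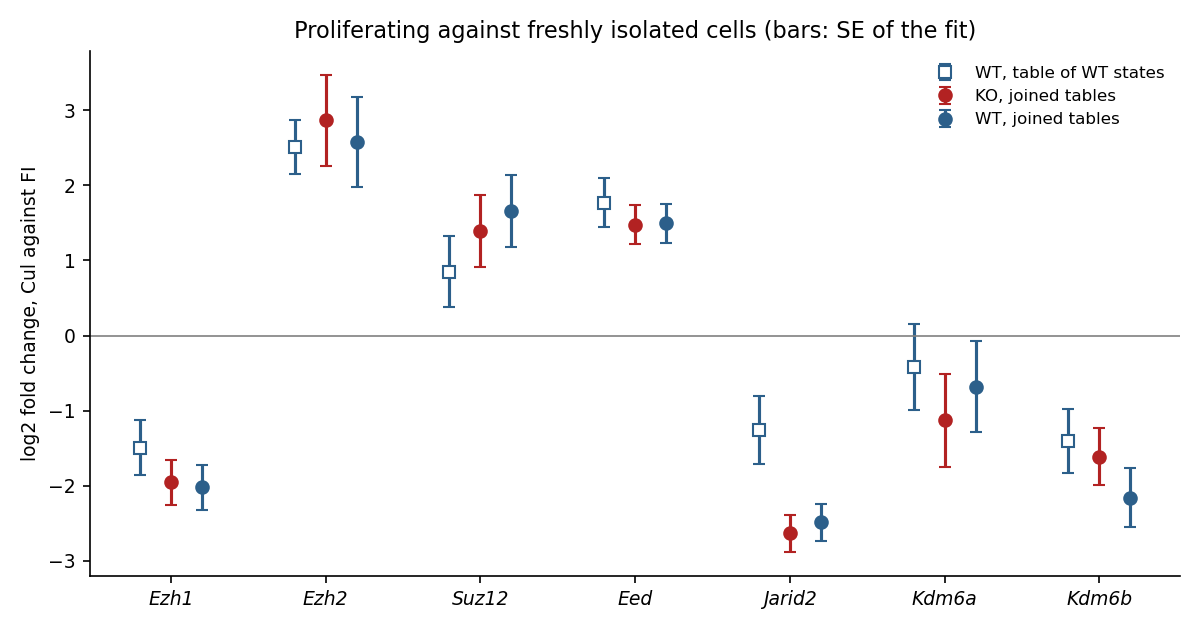
Log2 fold change of proliferating against freshly isolated cells for each gene, with the standard error of the fit, in the table of WT states (open squares) and in the joined tables for KO (red) and WT (blue) cells. Ezh2, Suz12 and Eed lie above 0 and Ezh1, Jarid2, Kdm6a and Kdm6b below 0 in all 3 estimates; Kdm6a (-0.41, -1.13 and -0.68) did not pass in any of them.

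Per transcript length, the order of the catalytic subunits turned round between the states. In FPKM, which is comparable between genes of a table, Ezh1 averaged 28.9 ± 1.0 FPKM in KO_FI and 30.1 ± 2.1 FPKM in WT_FI libraries, and Ezh2 averaged 8.63 ± 1.84 FPKM in KO_FI and 11.3 ± 1.3 FPKM in WT_FI libraries (SD, n = 3 each). In culture Ezh1 averaged 6.07 ± 1.75 FPKM in KO_Cul and 6.17 ± 2.18 FPKM in WT_Cul libraries (SD, n = 2 each), whereas Ezh2 had 60.2 and 41.8 FPKM in KO_Cul and 68.4 and 43.0 FPKM in WT_Cul libraries 0 and 1. The Ezh2 to Ezh1 ratio of FPKM, taken within a library and so free of library scaling, was 9.30 and 6.47 in WT_Cul libraries of the table of WT states, against 0.564 and 0.389 in its WT_FI libraries. Ezh2 exceeded Ezh1 in every cultured library and fell short of it in every fresh one. The mean ratio was 16.6-fold higher in WT_Cul, and the exact two-sided permutation test gave p = 0.333, the smallest that 2 against 2 libraries allow. Suz12 and Eed were of similar level to each other in FI cells, at 14.5 ± 1.7 and 15.4 ± 2.3 FPKM in KO_FI and 15.9 ± 1.8 and 16.5 ± 2.6 FPKM in WT_FI libraries (SD, n = 3 each). Kdm6b was the most abundant of the 7 in FI cells, at 52.4 ± 19.4 FPKM in KO_FI and 68.8 ± 24.0 FPKM in WT_FI libraries, and Ezh2 the least (SD, n = 3 each). In culture Ezh2 was the most abundant in both genotypes of the Cul table and Jarid2 the least, at 2.42 ± 0.30 FPKM in KO_Cul and 2.67 ± 0.79 FPKM in WT_Cul libraries (SD, n = 2 each).

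**Figure D3:**
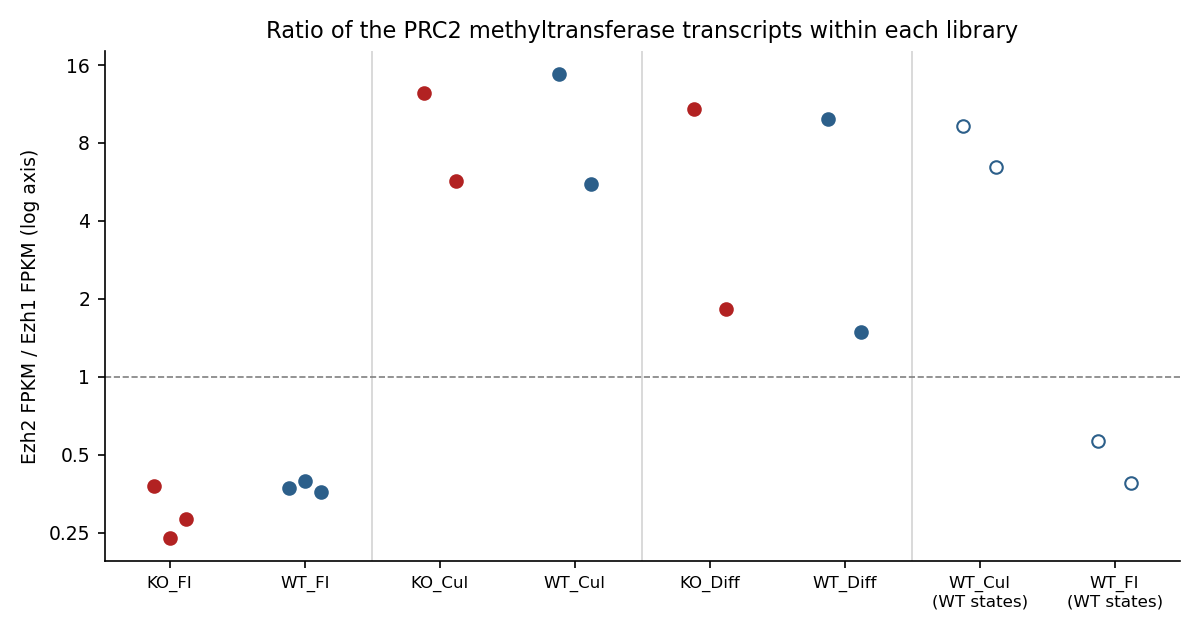
Ratio of Ezh2 to Ezh1 FPKM within each library (log axis), for the 4 tables divided by grey lines; red points are KO, blue points WT, open points the table of WT states, and the dashed line marks a ratio of 1. FI libraries lie between 0.238 and 0.564, Cul libraries between 5.57 and 14.8, and the Diff libraries at 10.8 and 1.83 (KO) and 9.94 and 1.49 (WT).

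After 24 hours in differentiation medium none of the 7 genes passed against culture in either genotype, in the joined fit. Of 16698 genes, 4.13% passed between KO_Diff and KO_Cul (3.29% higher, 0.844% lower) and 3.11% between WT_Diff and WT_Cul (2.57% higher, 0.545% lower). Eed had the smallest p-values, with a log2 difference of -0.78 (SE 0.29, adjusted p = 0.143, edgeR) in KO cells and -0.86 (SE 0.29, adjusted p = 0.119, edgeR) in WT cells. Its level with all libraries scaled together was 38.5 and 53.3 CPM in KO_Diff and 39.1 and 54.1 CPM in WT_Diff, below all Cul libraries (70.9 and 86.3 CPM in KO_Cul, 67.3 to 115 CPM in WT_Cul) and above all FI libraries (25.2 to 35.0 CPM). Kdm6b was at 51.8 and 74.6 CPM in KO_Diff and at 44.8 and 55.4 CPM in WT_Diff on the same scale, with a log2 difference from culture of -0.79 in KO and -0.96 in WT cells (adjusted p = 0.282 and 0.191, edgeR). DESeq2 called Eed in WT cells (adjusted p = 0.0454), in a fit that called 2254 of 16698 genes, 615 of them lower. Without WT_Diff library 0, which leaves 1 library in that group, the WT estimates were -2.17 for Suz12, -1.07 for Eed and -2.30 for Kdm6a.

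In the Diff groups, where the spread was wide, both genotypes held one library rich in proliferation transcripts and one rich in muscle transcripts. Ezh2 had 160 CPM in KO_Diff library 0 and 40.0 CPM in KO_Diff library 1, against 155 CPM in WT_Diff library 0 and 40.0 CPM in WT_Diff library 1. Suz12 had 161 and 76.1 CPM in KO_Diff, against 170 and 41.8 CPM in WT_Diff libraries 0 and 1. Myog, the factor that starts terminal differentiation, was at 149 and 3619 CPM in KO_Diff and 61.2 and 2015 CPM in WT_Diff libraries 0 and 1. The library with the higher Myog was thus the one with the lower Ezh2 and Suz12 in both genotypes. The Ezh2 to Ezh1 ratio was 10.8 and 1.83 in KO_Diff and 9.94 and 1.49 in WT_Diff libraries 0 and 1. Its difference between genotypes was 0.21 on the log2 scale (exact two-sided permutation p = 0.667, smallest possible 0.333).

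None of the 7 genes differed between KO and WT cells beyond the threshold in any state. In freshly isolated cells 0 of the 7 passed and all 7 overlapped between KO_FI and WT_FI. Over all 15146 genes 0% passed with edgeR, 621 had an unadjusted p under 0.05, DESeq2 called 117 and 9.22% did not overlap (5.57% higher, 3.65% lower). The smallest p of the 7 belonged to Ezh2, at 28.8, 19.2 and 21.6 CPM in KO_FI libraries, against 30.9, 33.6 and 26.7 CPM in WT_FI libraries. KO_FI library 0 lay within the WT_FI range and the other two below it (log2 -0.39, SE 0.19, adjusted p = 1.00, edgeR). Ezh2 was lower in KO_FI at each library number, and with the number as a block its estimate was -0.40 (adjusted p = 0.609, edgeR). Beside it, all 21 genes of an E2F and proliferation list had estimates below 0 (median -0.70) with 0 of 21 called, and Mki67 averaged 46.9 ± 26.6 CPM in KO_FI and 83.1 ± 31.7 CPM in WT_FI libraries (SD, n = 3 each). Mki67 overlapped between the groups, at 21.4 to 74.5 CPM in KO_FI and 55.9 to 118 CPM in WT_FI libraries. Whether these lower estimates reflect the spread between libraries, fewer cycling cells or less RNA per cell was not tested.

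Kdm6b had 527, 265 and 322 CPM in KO_FI libraries 0, 1 and 2, against 672, 378 and 401 CPM in WT_FI libraries 0, 1 and 2. It was lower in KO_FI at each number, but the spread between numbers was wider than the difference (log2 -0.38, SE 0.34, adjusted p = 1.00, edgeR). With the library number as a block its estimate was -0.39 (adjusted p = 0.523, edgeR), which did not pass either. The 3 WT_FI libraries of this table had at least 378 CPM, while those of the table of WT states had 148 and 189 CPM on their own scale. Ezh1 was at 124 to 132 CPM in KO_FI and 121 to 138 CPM in WT_FI libraries. Jarid2 was at 106 to 127 CPM in KO_FI and 109 to 118 CPM in WT_FI libraries, and Kdm6a at 80.1 to 105 CPM in KO_FI and 75.5 to 117 CPM in WT_FI libraries. Suz12 was at 59.4 to 74.9 CPM in KO_FI and 65.4 to 80.2 CPM in WT_FI libraries, and Eed at 28.0 to 36.8 CPM in KO_FI and 28.7 to 38.8 CPM in WT_FI libraries. The log2 estimates of these 5 genes lay between -0.12 (SE 0.13) and 0.07 (SE 0.21). The Ezh2 to Ezh1 ratio was 0.380, 0.238 and 0.283 in KO_FI libraries, against 0.373, 0.396 and 0.359 in WT_FI libraries, and overlapped (log2 -0.35, exact two-sided permutation p = 0.3, smallest possible 0.1). The Kdm6b to Kdm6a ratio was 4.18, 2.60 and 2.42 in KO_FI libraries and 4.50, 3.82 and 4.17 in WT_FI libraries (log2 -0.48, exact two-sided permutation p = 0.3). It was lower in KO_FI at each number. The exact sign-flip test over the 3 pairs gave p = 0.25, the smallest it allows, so that it could not pass. The pairs by number were taken from these data, not from the labels.

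In culture 0 of the 7 passed between KO_Cul and WT_Cul. Of all 13963 genes 0% passed with edgeR, 112 had an unadjusted p under 0.05 and DESeq2 called 3. Suz12 was the only one of the 7 that did not overlap, where 23% of all genes did not (11.8% higher, 11.1% lower): it had 117 and 151 CPM in KO_Cul libraries, against 188 and 167 CPM in WT_Cul libraries (log2 -0.41, SE 0.22, adjusted p = 1.00, edgeR). Ezh2 had 150 and 107 CPM in KO_Cul libraries 0 and 1, against 174 and 108 CPM in WT_Cul libraries 0 and 1, so that library 0 of each genotype was the higher one. The same was seen for Eed, at 70.8 and 62.2 CPM in KO_Cul and 86.9 and 59.3 CPM in WT_Cul libraries. Ezh1 went the other way, at 19.7 and 30.5 CPM in KO_Cul and 19.2 and 31.5 CPM in WT_Cul libraries 0 and 1. Jarid2 had 14.9 and 13.0 CPM in KO_Cul and 18.9 and 12.3 CPM in WT_Cul libraries, and Kdm6b had 109 and 74.8 CPM in KO_Cul and 78.7 and 90.3 CPM in WT_Cul libraries. The Ezh2 to Ezh1 ratio was 12.4 and 5.72 in KO_Cul and 14.8 and 5.57 in WT_Cul libraries (exact two-sided permutation p = 1, smallest possible 0.333).

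In differentiation medium 0 of the 7 passed between KO_Diff and WT_Diff. Of all 14482 genes 0% passed with edgeR, 27 had an unadjusted p under 0.05 and DESeq2 called 0. Jarid2 was the only one that did not overlap, where 13.2% of all genes did not (6.39% higher, 6.85% lower), with 17.4 and 23.1 CPM in KO_Diff libraries, against 13.4 and 15.6 CPM in WT_Diff libraries (log2 0.48, SE 0.42, adjusted p = 1.00, edgeR). Kdm6b had 46.3 and 68.0 CPM in KO_Diff and 40.0 and 52.5 CPM in WT_Diff libraries, Eed 47.6 and 35.1 CPM in KO_Diff and 48.2 and 37.1 CPM in WT_Diff libraries, and Ezh1 24.1 and 35.6 CPM in KO_Diff and 25.4 and 43.7 CPM in WT_Diff libraries. The standard errors here, from the fit without a block, were 0.39 to 0.92 on the log2 scale, the widest of the 3 states. In that fit a 2-fold difference of Ezh2 (SE 0.92) or Suz12 (SE 0.78) was not detectable. For Ezh2 the spread lay between libraries 0 and 1, at 160 and 40.0 CPM in KO_Diff and 155 and 40.0 CPM in WT_Diff. With the library number as a block, none of the 7 passed either, while 147 of all genes did (edgeR). Summed fibroblast markers were at 163 and 278 CPM in KO_Diff and 39.3 and 47.6 CPM in WT_Diff libraries, and mature myofibre markers at 113 and 12359 CPM in KO_Diff and 49.6 and 6127 CPM in WT_Diff libraries, and their part was not tested.

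The difference between genotypes was also compared between states in the joined fit. None of the 7 genes passed for Cul against FI, Diff against FI or Diff against Cul, and 0% of the 16698 genes passed in each, with 196, 211 and 245 genes at an unadjusted p under 0.05 and 0 called by DESeq2. The largest of these estimates was for Kdm6b between Diff and FI (log2 0.72, SE 0.51), followed by Jarid2 between Diff and Cul (log2 0.64, SE 0.34). Each has an adjusted p of 1.00 (edgeR).

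**Figure D4:**
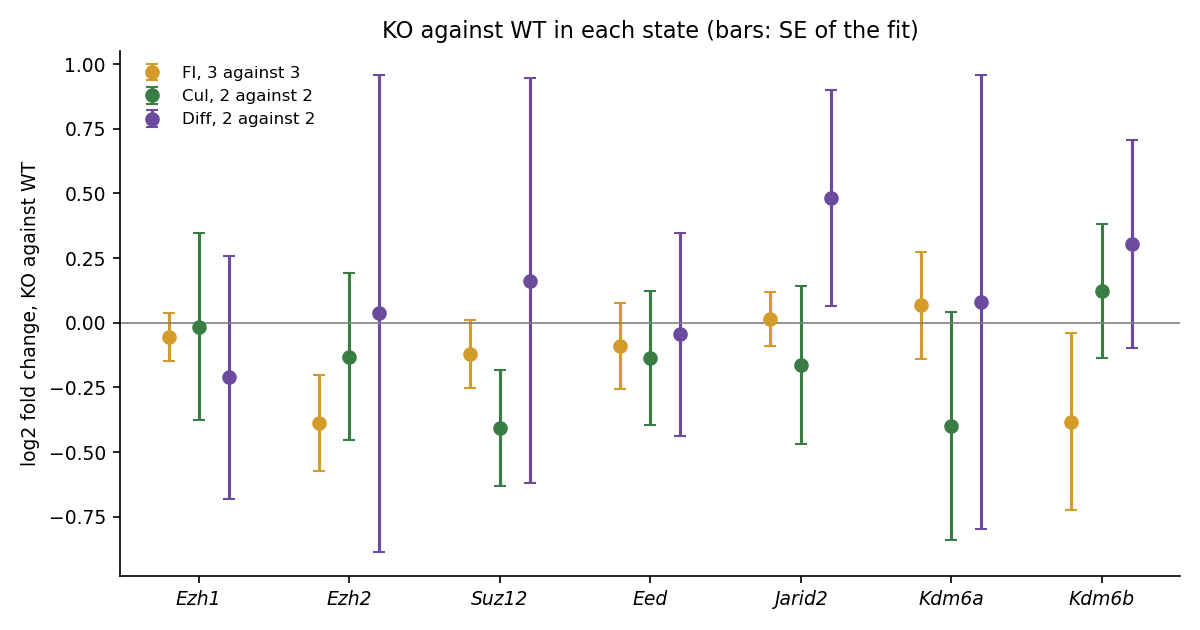
Log2 fold change of KO against WT cells for each gene in FI (3 against 3 libraries), Cul and Diff (2 against 2 each) cells, with the standard error of the fit. The estimates run from -0.41 (Suz12 in Cul) to 0.48 (Jarid2 in Diff), and none passed.

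In the Cul and Diff tables Kdm6a differed between libraries of the same group, and it did so together with Xist, the RNA that coats the inactive X chromosome and is made in female cells. Kdm6a lies on the X chromosome, is known to escape X inactivation, and has a Y-linked relative, Uty, so fragments of the pair could be assigned to either. In the Cul table Kdm6a had 21.0 CPM in KO_Cul library 0 and 45.8 CPM in KO_Cul library 1, against 34.9 CPM in WT_Cul library 0 and 53.2 CPM in WT_Cul library 1. Xist had 0.36 CPM in KO_Cul library 0 and 1217 CPM in KO_Cul library 1, against 1.06 CPM in WT_Cul library 0 and 2287 CPM in WT_Cul library 1. In both genotypes the library with little Xist was thus the one with less Kdm6a. In the Diff table the numbers were turned round, with Kdm6a at 42.7 and 23.7 CPM in KO_Diff libraries 0 and 1, against 53.4 and 9.46 CPM in WT_Diff libraries 0 and 1. Xist was at 786 and 0.14 CPM in KO_Diff libraries 0 and 1, against 1234 and 0.32 CPM in WT_Diff libraries 0 and 1. Uty was higher in the libraries with little Xist, at 10.6 CPM in KO_Cul library 0, 30.6 CPM in KO_Diff library 1, 22.9 CPM in WT_Cul library 0 and 12.6 CPM in WT_Diff library 1. The other 4 libraries of these tables, which had Xist, still had 8.57 CPM (KO_Cul), 7.22 CPM (KO_Diff), 7.11 CPM (WT_Cul) and 6.75 CPM (WT_Diff) of Uty. Ddx3y and Kdm5d, also sex-linked, were like Uty higher with little Xist in KO_Cul, WT_Cul, KO_Diff and WT_Diff, with all libraries scaled together. Kdm5c, another sex-linked gene, was higher with little Xist in KO_Cul, KO_Diff and WT_Diff, unlike Kdm6a. With all libraries scaled together, libraries 0 and 1 had 163.4 and 127.8 CPM in KO_Cul and 130.3 and 174.0 CPM in KO_Diff. In WT_Diff they had 118.9 and 151.1 CPM. In WT_Cul they had 134.6 and 150.5 CPM, the same order as Kdm6a. Other sex-linked genes also spread within groups, given here from the lower to the higher library. Ddx3x had 464 and 808 CPM in KO_Cul, 863 and 886 in WT_Cul, 253 and 685 in KO_Diff, and 175 and 834 in WT_Diff. Eif2s3x had 367 and 495 CPM in KO_Cul, 457 and 495 in WT_Cul, 311 and 505 in KO_Diff, and 180 and 545 in WT_Diff. Eif2s3y had 20.3 and 43.4 CPM in KO_Cul and 13.3 and 48.0 in WT_Diff. The relation of any of these genes to Xist was not tested.

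Every library of the KO_FI table had both Xist (1414 to 2916 CPM in KO_FI, 935 to 2252 CPM in WT_FI) and Uty (9.25 to 22.1 CPM in KO_FI, 6.63 to 26.0 CPM in WT_FI). Xist splits the 18 libraries into separate clusters, so no correlation with it is given. Over the 18 libraries scaled together, log2 Kdm6a had a Pearson's r of 0.63 with its fellow demethylase Kdm6b and of -0.35 with Mki67, descriptions over libraries that share state, table and group. Xist is not the only transcript that separates these libraries: Mki67 was at 482 and 223 CPM in KO_Cul and at 601 and 269 CPM in WT_Cul libraries 0 and 1, and Myog split the Diff libraries. The relations of Kdm6a to these transcripts cannot be told apart within a table. The Kdm6b to Kdm6a ratio of FPKM has Kdm6a as its denominator and is not a separate result. It was higher in the library with less Kdm6a. It was 4.09 and 1.28 in KO_Cul and 1.77 and 1.34 in WT_Cul libraries 0 and 1. In Diff cells it was 0.851 and 2.25 in KO_Diff and 0.588 and 4.36 in WT_Diff libraries 0 and 1.

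**Figure D5:**
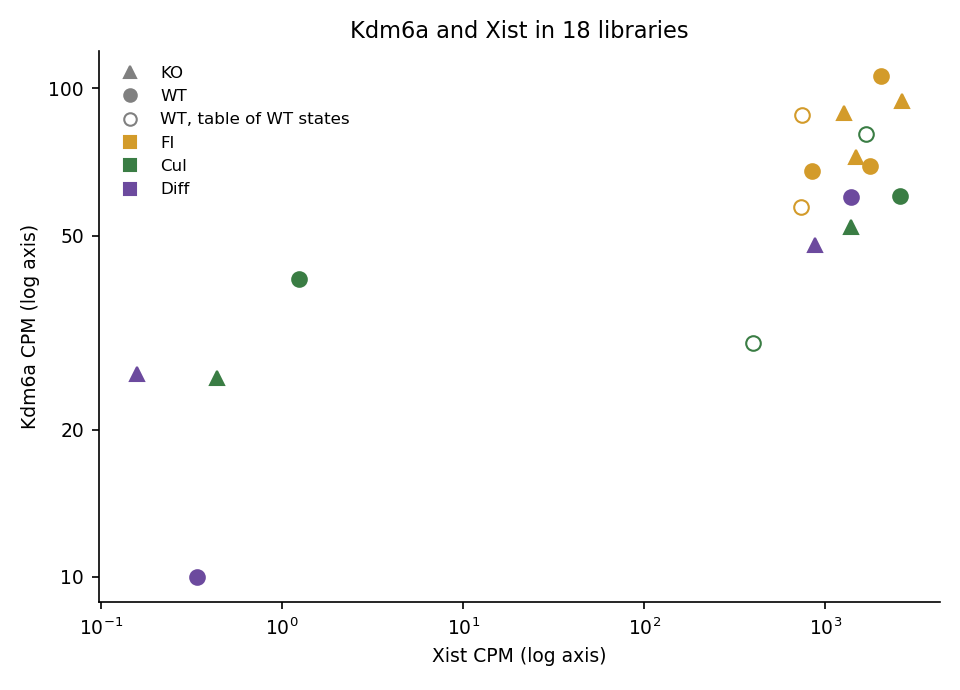
Kdm6a against Xist CPM (both log axes) in the 18 libraries scaled together; triangles are KO, circles WT, open circles the table of WT states, and colours the states. The 4 libraries with almost no Xist, 2 of Cul and 2 of Diff cells, have 9.98 to 40.8 CPM of Kdm6a, and the other 14 have 30.2 to 106 CPM. Of these 14, the FI libraries have 57.3 to 106 CPM and the Cul and Diff libraries 30.2 to 80.8 CPM.

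Over the 18 libraries the 7 genes, which were chosen with earlier results of these data known, fell into patterns. Pearson's r of log2 CPM was -0.94 between Ezh2 and Ezh1, 0.91 between Ezh2 and Eed, 0.88 between Ezh2 and Suz12, and 0.93 between Ezh1 and Jarid2. Ezh2 also followed Mki67 (r = 0.96), and Kdm6a showed almost no relation to Suz12 (r = 0.02). These are descriptions, since libraries of a state share their table and much of the values. Among 11393 genes with a mean of at least 5 CPM, those most like Ezh2 were Nasp, a histone chaperone (r = 0.99), Mcm3, a subunit of the replicative helicase, and Bard1, the partner of Brca1. Those most like Suz12 were Lin54, Npat and Haus6 (r = 0.98 each), and those most like Eed were Dnttip2, Tsr1 and 1700029F09Rik (r = 0.97 to 0.98). Jarid2 was most like Notch1, a receptor of the pathway that keeps satellite cells quiescent (r = 0.99), Olfml2a and Gem, and Ezh1 most like Ypel4, Cacna2d4 and Ppl (r = 0.98 to 0.99). Kdm6b was most like Ulk1, a kinase that starts autophagy (r = 0.97), Epc1 and Slc41a1, and Kdm6a most like Frs2, Golim4 and Arid4a (r = 0.98 each).

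Other Polycomb genes and partners of the demethylases are set here against the 28.6% of all genes that passed between WT_Cul and WT_FI in the table of WT states (12.6% higher, 16% lower). Of 8 further PRC2 partners, 3 rose and 1 fell, with a median log2 of 1.39 against 0.06 over all genes. Rbbp4, a histone-binding core subunit, averaged 662 CPM in WT_Cul and 213 CPM in WT_FI libraries (log2 1.64, adjusted p = 0.0411, edgeR), and Aebp2, which stabilises the complex, averaged 340 and 108 CPM (log2 1.66, adjusted p = 0.0298). Epop, listed under its older symbol E130012A19Rik, also rose (log2 2.49, adjusted p = 0.043), and Phf1, a Tudor-domain partner, fell (log2 -1.60, adjusted p = 0.043). Of 21 genes of PRC1, the complex that ubiquitinates histone H2A, 3 rose and 2 fell (median log2 0.40), a share no higher than that of all genes. The CBX readers Cbx7 and Cbx6 fell by 2.62 and by 2.18 on the log2 scale, and Pcgf6 and L3mbtl2, known from a variant PRC1, rose by 2.03 and by 1.55 (adjusted p = 0.014, 0.0183, 0.0197 and 0.0298 for the 4 genes in this order, edgeR).

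Of 8 partners of Kdm6a in the COMPASS-like methyltransferase complexes, 3 rose in the same comparison, where 12.6% of all genes did: the core subunits Ash2l (log2 1.68, adjusted p = 0.0236), Wdr5 (1.55, adjusted p = 0.0255) and Dpy30 (2.21, adjusted p = 0.0399, edgeR). The catalytic subunits Kmt2c and Kmt2d, listed as Mll3 and Mll2, did not pass (log2 -1.41 and -0.24). Of 3 deubiquitinase genes that act on histone H2A, none passed (median log2 0.48), while 2 of 3 rose in the joined tables in each genotype. All 21 E2F and proliferation genes had estimates above 0 (lowest log2 1.70, median 3.19), and 20 passed as higher, while E2f2 did not pass. Of 19 loci known as PRC2 targets in other cell types 11 were measured and none passed. The smallest p-values among these were for Sox17, at 1.07 CPM in WT_Cul and 5.24 CPM in WT_FI libraries (adjusted p = 0.0714, edgeR), and Hoxd10, at 0.278 CPM in WT_Cul and 1.21 CPM in WT_FI libraries (adjusted p = 0.0801). The largest estimate was that of Cdkn2a, at 2.83 CPM in WT_Cul and 0.376 CPM in WT_FI libraries (log2 2.91, adjusted p = 0.145, edgeR). In the joined tables, where 54.9% (KO) and 53.5% (WT) of all genes passed, 1 of 12 measured loci rose and 4 fell in KO_Cul against KO_FI, and 2 rose and 6 fell in WT_Cul against WT_FI. Cdkn2a, a cell cycle inhibitor, rose in both genotypes there (log2 3.42 in KO and 2.66 in WT cells). Sox17 (log2 -5.93 in KO, -5.90 in WT cells) and Isl1 (log2 -2.59 in KO, -2.44 in WT cells), developmental transcription factors, fell. Summed endothelial markers were lower in culture too. They spanned 342 to 512 CPM (KO_FI) and 163 to 550 CPM (WT_FI), the latter without the table of WT states. Cultured cells of the Cul table had 5.69 to 10.8 CPM (KO_Cul) and 7.78 to 9.98 CPM (WT_Cul). Whether a loss of other cell types took part in the fall of these loci was not tested. Between genotypes 0 genes of any of these lists passed in any state (edgeR). The medians lay between -0.12 and 0.13 on the log2 scale, apart from the E2F and proliferation list in FI cells at -0.70.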

How the data were processed

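RNA-seq of 18 libraries was analysed; 10 ChIP and input samples were not analysed here. Per the file headers, the authors deposited Cuffdiff tables with estimated counts of fragments per gene and library, not scaled, and with FPKM scaled between the libraries of a table. Per the submitters' processing notes the build was mm9, and TopHat, Bowtie, Cuffdiff and SICER were used, with no roles given; the annotation is not given in the sources used here. The tables name states by letters; the letter A was matched to Cul by elimination. The tables hold no label replicate numbers, so libraries carry the 0-based table index. The 7 genes and all gene lists were chosen with earlier results of these data known.

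Estimated counts were rounded (1.42 to 8.18% were not whole within 0.01) and tested with edgeR 4.0.16 in R 4.3.3: genes whose status was not OK left out (12 to 27 per table), filterByExpr, TMM, robust quasi-likelihood F test, Benjamini-Hochberg over all genes tested, threshold 0.05. SE is the absolute log2 fold change divided by the square root of F. Each comparison was fitted within its table; further contrasts between states, and differences of the KO effect, came from a 6-group fit of the 3 tables with KO libraries. Ratios of FPKM were compared by exact permutation tests. Likeness used log2 CPM with a prior count of 2. All members were named, and of each list up to 4 genes with the smallest p; E2f2, Kmt2c and Kmt2d were named after their values were seen. Scripts were tested on simulated counts. Alternatives were RLE scaling, no filter, all statuses, DESeq2 1.42.0, the library index as a block, and leaving out each library. No 2 libraries agreed within sampling noise (lowest chi-square per degree of freedom 28 over 22 pairs). In the FI table, deviations of same-index libraries correlated at 0.866, 0.683 and 0.584, and the index was taken to pair them. KO_FI library 2 with WT_FI library 1 gave 0.536, and KO_FI library 1 with WT_FI library 2 gave 0.348. The matching of libraries 1 and 2 is thus less firm than that of library 0. The pairing comes from the data, not the labels.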

Additional observations from a re-analysis of the deposited data

How the results depend on the processing

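RLE scaling and no filter on low counts changed no direction or call among the 7 genes, and neither did keeping genes of every status, which was run for the 4 comparisons within a table. In WT_Cul against WT_FI of the table of WT states, 3 of the 7 genes were called, and 5 with DESeq2, with the replicate block and with both. Using both was chosen after seeing the data. Of all 14680 genes, 4200 were called, against 5763 with DESeq2, 6176 with the block and 6416 with both. Under the block Jarid2 (-1.34, adjusted p = 0.0267, edgeR) and Kdm6b (-1.46, adjusted p = 0.0122, edgeR) passed too. Leaving out single libraries gave 0 to 6 calls there, and Kdm6a ranged from -1.34 to 0.096. Between WT_Diff and WT_Cul, DESeq2 called 1 of the 7, in a fit that called 2254 of 16698 genes, and the estimates moved when single libraries were left out. With the block, run within tables and for the differences of the KO effect but not for the joined contrasts between states, no other call of the 7 changed. Same-index deviations correlated at 0.732 (Cul), 0.787 (Diff) and 0.387 (WT states), with 2 pairs each, too few for the index to be taken as a pairing.

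Directions of the KO estimates turned when single libraries were left out. In FI cells Eed ranged from -0.218 to 0.04, Jarid2 from -0.07 to 0.06 and Kdm6a from -0.043 to 0.311. In Cul cells Ezh1 ranged from -0.366 to 0.385, Ezh2 from -0.436 to 0.247, Eed from -0.388 to 0.156, Jarid2 from -0.438 to 0.168, Kdm6a from -1.069 to 0.034 and Kdm6b from -0.196 to 0.37. In Diff cells Ezh1 ranged from -0.541 to 0.228, Ezh2 from -1.294 to 1.334, Suz12 from -0.525 to 1.512, Eed from -0.286 to 0.182 and Kdm6a from -0.689 to 1.822. The log2 Ezh2 to Ezh1 ratio ranged from -0.809 to 0.598 (Cul) and -1.159 to 1.578 (Diff), and the Kdm6b to Kdm6a ratio from -0.261 to 1.41 (Cul) and -1.656 to 1.235 (Diff). Between KO_Diff and KO_Cul, Ezh1 ranged from -0.119 to 0.466, Ezh2 from -1.783 to 0.237, Suz12 from -0.899 to 0.2 and Kdm6a from -0.566 to 0.534; between WT_Diff and WT_Cul, Ezh1 from -0.028 to 0.731, Ezh2 from -1.908 to 0.097, Jarid2 from -0.493 to 0.165 and Kdm6a from -2.303 to 0.247. The cause was not tested.

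Counts over all genes moved more. KO against WT gave 0 genes with edgeR in each state, against 117 (FI) and 3 (Cul) with DESeq2, 3 (Cul) and 147 (Diff) with the block, and 251 (FI), 392 (Cul) and 99 (Diff) with both. Using FI libraries 1 and 2 only, since library 0 of each genotype was deeper, gave 1 gene. WT_Cul against WT_FI gave 4200 genes, 6416 with DESeq2 and the block, 2063 without WT_FI library 1, 2108 without WT_FI library 0 and 8050 without WT_Cul library 1. Between Diff and Cul, 690 (KO) and 520 (WT) genes became 2303 and 2254 with DESeq2, 0 without KO_Cul library 0, 5 without WT_Cul library 0 and 3829 in WT without WT_Diff library 0. With 2 or 3 libraries a group, single libraries decide many of these values. The effect of depth was not tested.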
